A study of Homo sapiens with 6 samples.

Results

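A set of 9 p53 target genes was followed in gastric cancer cells with and without extra *FN1* 3′-UTR: *CDKN1A*, *MDM2*, *BBC3*, *BAX*, *GDF15*, *TP53I3*, *SESN1*, *RRM2B* and *ZMAT3*. The members are the 9 gene rows with these names among the 39739 rows of each expression table, and all 9 were present in each of the 6 libraries. They were chosen by name as well-known p53 targets, with earlier results of these data known. All 9 passed the filter on low values, which kept 23299 genes for testing.

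RNA was sequenced from HGC27, a human gastric cancer cell line. In 3 libraries, named HGC27-FN1 3′-UTR cells here, the line carried the 3′ untranslated region of *FN1*, the fibronectin gene, overexpressed after lentiviral infection and puromycin selection of a cell population. The other 3 libraries came from HGC27-control cells, whose genotype is given as control with no further detail of the vector. The sources do not say whether replicates were separate cultures, and the P values then measure only the spread between these libraries.

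The p53 protein is a transcription factor that is held low by MDM2 and rises after DNA damage and other stress. It binds DNA sites in or near its target genes and raises their transcription, and the targets stop the cell cycle, repair DNA, limit oxidative damage or start apoptosis. Because *MDM2* is itself a target, the pathway feeds back on itself. The levels of target genes are the usual readout of the pathway.

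The sequences that p53 reads are shown for the members where a start-site window held such a site. The window ran from 250 bases before to 50 bases after a RefSeq transcript start (GRCh38.p14), and the p53 full site was searched on both strands as 20 bases with no spacer and at most 3 mismatches, its fixed C and G positions intact. Of 35116 windows over all genes, 1.12% held such a site. A window was at hand for 8 of the 9 members, and 3 of these members held a site in at least 1 of their 14 windows. The share over all genes is per window and the count of members is per gene, so they are not on the same basis. A further site is shown for *FAS*, a death receptor gene described with the other targets. Sites of the remaining targets are not shown, and the relation of sites to fold changes was not tested. Capitals mark the letters that fit the consensus, and each site is written 5′ to 3′ on the gene's strand.
MDM2, chr12:68808923-68808942, plus strand, 2 mismatches: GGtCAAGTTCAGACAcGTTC
GDF15, chr19:18386186-18386205, plus strand, 3 mismatches: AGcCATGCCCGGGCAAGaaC
SESN1, chr6:109009018-109009037, minus strand, 3 mismatches: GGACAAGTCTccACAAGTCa
FAS, chr10:88991309-88991328, plus strand, 2 mismatches: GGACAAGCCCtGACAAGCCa
The *CDKN1A* window held none, its best match having 5 mismatches. A match is a description of letters and not of binding, and p53 sites that lie farther from a start are outside these windows.

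Levels are given as RPKM, reads per kilobase of exon per 1000000 assigned reads, and the read counts beside them were recovered from these values. Each library held 16357085 to 37037532 reads assigned to genes, and 3 reads, the limit that a count of 0 allows, correspond to 0.0810 to 0.183 RPM, reads per 1000000 assigned reads. The overexpressed gene was higher in all 3 FN1 3′-UTR libraries, with *FN1* at 0.777, 0.745 and 0.819 RPKM in these and at 0.543, 0.474 and 0.532 RPKM in HGC27-control cells (log2 fold change 0.52, limma adjusted *P* = 0.0292, and 0.0614 to 0.0982 when any 1 library was left out), a value over the whole gene that does not separate the introduced 3′-UTR from the endogenous transcript.

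None of the 9 members passed the test for a difference between the groups (limma on log2(RPKM + 0.1), Benjamini-Hochberg adjusted *P* under 0.05 over all tested genes, named a call here). Over all tested genes 13.0% passed, 5.62% higher and 7.36% lower with the FN1 3′-UTR. At an unadjusted *P* under 0.05, 1 of the 9 passed, *CDKN1A*, against 29.6% of all genes. With the added demand of a log2 fold change beyond 1 in either direction, none of the 9 passed, against 2.47% of all genes, 1.65% higher and 0.815% lower. The fitted differences ran from −0.19 for *SESN1* to 0.51 for *CDKN1A* on the log2 scale, with a median of 0.12 where the median over all tested genes was −0.04. Signs were mixed, 5 positive and 4 negative. The 95% confidence interval included 0 for 8 members, and over all 9 the intervals ran from a fold in RPKM + 0.1 of 0.706 to 1.86. Scaling by median-ratio factors moved the share of higher among all called genes from 43.3% to 56.0% and called none of the 9 members.

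The ranges of the 2 groups were separate for 4 of the 9 members, *CDKN1A*, *MDM2*, *TP53I3* and *ZMAT3*, each of them higher in HGC27-FN1 3′-UTR cells. Over all tested genes, 36.0% did not overlap, 14.3% in the higher and 21.7% in the lower direction. With 3 libraries against 3, an exact permutation test of a single gene cannot go below *P* = 0.1, two-sided.

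**Figure D1:**
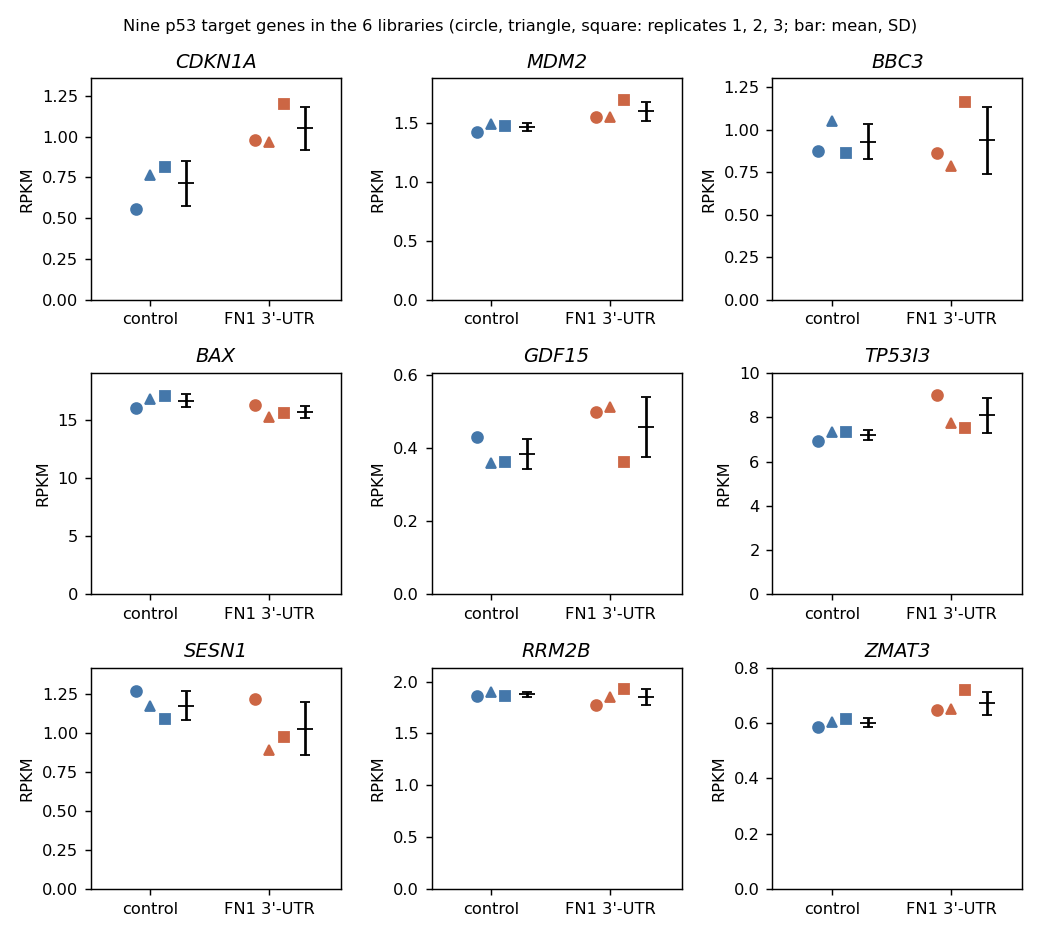
RPKM (vertical axis, starting at 0) of each of the 9 p53 target genes in the 3 control (blue) and 3 FN1 3′-UTR (orange) libraries, with the mean and SD at the right of each group. The FN1 3′-UTR libraries lie above the control libraries for *CDKN1A*, *MDM2*, *TP53I3* and *ZMAT3*, and the groups overlap for the other 5 genes.

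Of the 9 members, *CDKN1A* differed most. It encodes p21, the inhibitor of cyclin-dependent kinases that carries much of the p53 cell cycle arrest, and lies at chr6:36676460-36687339 (GRCh38, plus strand). Its level was 0.982, 0.967 and 1.20 RPKM in replicates 1, 2 and 3 of HGC27-FN1 3′-UTR cells and 0.558, 0.766 and 0.814 RPKM in those of HGC27-control cells. The lowest FN1 3′-UTR library was therefore above the highest control library, and the lowest value of all was control replicate 1. These levels rest on few reads, 49, 72 and 107 in FN1 3′-UTR and 38, 72 and 92 in control cells, so that counting alone gives a relative SD of 16.2% at 38 reads. The mean was 1.05 ± 0.131 RPKM against 0.713 ± 0.136 RPKM (SD, n = 3), and the log2 fold change was 0.51 with an SE of 0.16 and a limma adjusted *P* of 0.0896 (95% interval 0.12 to 0.90).

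The *CDKN1A* call depended on the fit. With limma voom on the reads recovered from RPKM, an alternative chosen after seeing the data, the log2 fold change was 0.58 and the adjusted *P* was 0.0110, in a fit that called 22.2% of all genes. The voom fits also differ in scaling, by median-ratio factors, and in the filter. Median-ratio scaling of RPKM without voom gave 0.54 (limma adjusted *P* = 0.0687). Over all 13 alternatives that tested *CDKN1A*, the adjusted *P* ran from 0.00876 to 0.205, and 2 of the 13 called it, both of them voom fits. Its sign was positive in each of them. The difference was 0.26 with a pseudocount of 1, which shrinks low values. Leaving out control replicate 1 gave 0.36, the lowest value of the fits without 1 library.

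**Figure D2:**
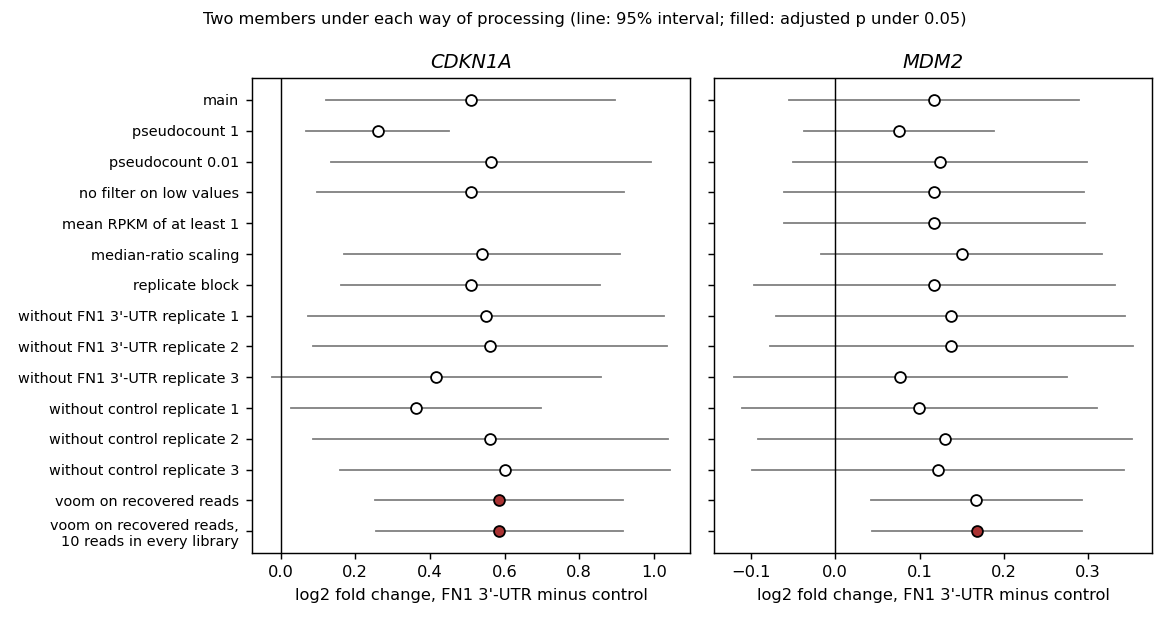
Log2 fold change of *CDKN1A* and *MDM2* (horizontal axis, FN1 3′-UTR minus control) in the fit reported here, listed first as main, and under each alternative, with 95% intervals and filled points where the adjusted *P* was under 0.05. *CDKN1A* passed in both voom fits and *MDM2* in the voom fit with at least 10 reads in every library, and *CDKN1A* has no point at a mean RPKM of at least 1 because its mean lay below that limit.

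Genes that p21 lowers through the DREAM repressor complex were read beside *CDKN1A*. Of 20 such cell cycle genes, 5 rose, none fell and 15 did not pass, with a median log2 fold change of 0.02. The called share was 25.0%, against 13.0% of all tested genes (5.62% higher and 7.36% lower). *CENPF*, a kinetochore gene, rose by 0.27 (SE 0.04, limma adjusted *P* = 0.0102). *RRM2*, a ribonucleotide reductase subunit, rose by 0.23 (limma adjusted *P* = 0.0226), and *CCNA2*, cyclin A2, rose by 0.21 (limma adjusted *P* = 0.0145). The count fell to 2 without FN1 3′-UTR replicate 1 or replicate 2 and to 1, the kinase gene *CDK1*, without control replicate 2, where the limma adjusted *P* of *RRM2* was 0.0837 and that of *CCNA2* 0.0565.

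Among the regulators in the member list, *MDM2* encodes the ubiquitin ligase that marks p53 for degradation (chr12:68808176-68850686, plus strand). Its level was 1.55, 1.55 and 1.69 RPKM in HGC27-FN1 3′-UTR cells, from 336, 501 and 655 reads. In HGC27-control cells it was 1.42, 1.49 and 1.47 RPKM, from 422, 609 and 723 reads. The groups did not overlap, but the gap between the nearest libraries was small, and the log2 fold change was 0.12 with an SE of 0.07 (limma adjusted *P* = 0.332). It was called in 1 of 14 alternatives, voom with at least 10 reads in every library (0.17, adjusted *P* = 0.0403), and its adjusted *P* elsewhere ran up to 0.585, without FN1 3′-UTR replicate 3 (log2 fold change 0.08). *MDM2* reads were divided by a merged exon length of 13269 bases, and 439 of these are shared with a transcript row on the same strand and 785 and 133 with rows on the opposite strand. The strand setting of the counting was not given in the sources used here, so reads in these stretches cannot be assigned with certainty.

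None of the members linked to apoptosis passed the test. *BAX* encodes a pore-forming protein of the mitochondrial outer membrane and lies at chr19:48954815-48961798 on the plus strand. It was measured at 16.3, 15.3 and 15.6 RPKM in HGC27-FN1 3′-UTR cells and at 16.1, 16.8 and 17.1 RPKM in HGC27-control cells, from 690 to 1640 reads. FN1 3′-UTR replicate 1 lay above the lowest control library, so the groups overlapped, and the log2 fold change was −0.08 with an SE of 0.04 (limma adjusted *P* = 0.230, 95% interval −0.18 to 0.01).

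*BBC3* encodes PUMA, a BH3-only protein that opposes the anti-apoptotic BCL2 family (chr19:47220822-47232766, minus strand). Its level was 0.865, 0.785 and 1.16 RPKM in HGC27-FN1 3′-UTR cells and 0.873, 1.05 and 0.866 RPKM in HGC27-control cells, from 45 to 108 reads. Both the highest and the lowest of the 6 values were FN1 3′-UTR libraries. The log2 fold change was −0.00 with an SE of 0.16 (limma adjusted *P* = 0.997), and the 95% interval ran from −0.39 to 0.38, so that a fold between 0.765 and 1.31 lay within it. Its exons share 80 bases with the row of a microRNA gene on the opposite strand, which had 2 to 5 reads.

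*TP53I3* encodes a quinone oxidoreductase linked to oxidative stress in p53-driven apoptosis (chr2:24077433-24085861, minus strand). Its level was 8.99, 7.76 and 7.54 RPKM in HGC27-FN1 3′-UTR cells and 6.95, 7.34 and 7.36 RPKM in HGC27-control cells, from 340 to 630 reads. All FN1 3′-UTR libraries were above all control libraries, with replicate 1 highest in the first group and lowest in the second. The means were 8.10 ± 0.783 and 7.22 ± 0.229 RPKM (SD, n = 3), the log2 fold change was 0.16 with an SE of 0.07, and the limma adjusted *P* was 0.201. Its exons share 80 bases with *FAM228B* on the opposite strand, a row with 42 to 88 reads. Without FN1 3′-UTR replicate 1 the difference was the smallest of the fits that leave out 1 library, at 0.08.

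*GDF15* encodes a secreted stress cytokine of the TGFβ superfamily and lies at chr19:18374731-18389176 on the plus strand. It had the fewest reads of the 9 members, 17, 26 and 22 in HGC27-FN1 3′-UTR cells and 20, 23 and 28 in HGC27-control cells, and counting alone gives a relative SD of 24.3% at 17 reads. The levels were 0.498, 0.510 and 0.361 RPKM against 0.429, 0.358 and 0.362 RPKM. Replicates 1 and 2 of the FN1 3′-UTR cells were above all controls and replicate 3 lay among them, and the log2 fold change was 0.20 with an SE of 0.17 (limma adjusted *P* = 0.492). At this depth a fold between 0.869 and 1.51 lay within the 95% interval.

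*GDF15* is also a target of ATF4, the transcription factor of the integrated stress response. Of 10 genes of that response, 8 fell, 1 rose and 1 did not pass, with a median log2 fold change of −0.61. Over all tested genes 7.36% fell and 5.62% rose. The gene of the list that rose had a log2 fold change of 0.50. *ATF4* itself fell by 0.67 on the log2 scale (SE 0.03, limma adjusted *P* = 1.90e-04), and *DDIT3*, the gene of the CHOP factor, fell by 0.61 (limma adjusted *P* = 0.00124). *NUPR1*, *ASNS* and *CHAC1*, a stress-induced chromatin protein gene, asparagine synthetase and a glutathione-degrading enzyme gene, fell by 1.27, 1.25 and 1.04 (limma adjusted *P* = 1.23e-04, 6.61e-05 and 0.0115). The difference between *GDF15* and these genes was not tested.

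*SESN1* encodes sestrin 1, which limits oxidative damage and mTORC1 signalling (chr6:108986437-109094819, minus strand). Its level was 1.22, 0.888 and 0.976 RPKM in HGC27-FN1 3′-UTR cells and 1.27, 1.17 and 1.09 RPKM in HGC27-control cells, from 102 to 206 reads. FN1 3′-UTR replicates 2 and 3 were the lowest of the 6 and replicate 1 lay among the controls. The log2 fold change was −0.19 with an SE of 0.13 (limma adjusted *P* = 0.402, 95% interval −0.50 to 0.13). Its exons share 363 of 5121 bases with *RP11-787I22.3* on the opposite strand, a row with 18 to 39 reads.

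*RRM2B* encodes the p53-inducible small subunit of ribonucleotide reductase, which supplies nucleotides for DNA repair. It was measured at 1.77, 1.85 and 1.93 RPKM in HGC27-FN1 3′-UTR cells and at 1.86, 1.90 and 1.86 RPKM in HGC27-control cells, from 161 to 383 reads. The control libraries lay within the range of the FN1 3′-UTR libraries. The log2 fold change was −0.02 with an SE of 0.06 (limma adjusted *P* = 0.886), and the interval of the fold in RPKM + 0.1, 0.889 to 1.10, was narrow.

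*ZMAT3* encodes a zinc finger protein that binds RNA and acts on splicing and mRNA stability (chr3:179017223-179072279, minus strand). Its level was 0.646, 0.649 and 0.721 RPKM in HGC27-FN1 3′-UTR cells and 0.585, 0.606 and 0.616 RPKM in HGC27-control cells, from 102 to 220 reads. The groups did not overlap, and FN1 3′-UTR replicate 3 was the highest library. The log2 fold change was 0.14 with an SE of 0.10 (limma adjusted *P* = 0.439).

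**Figure D3:**
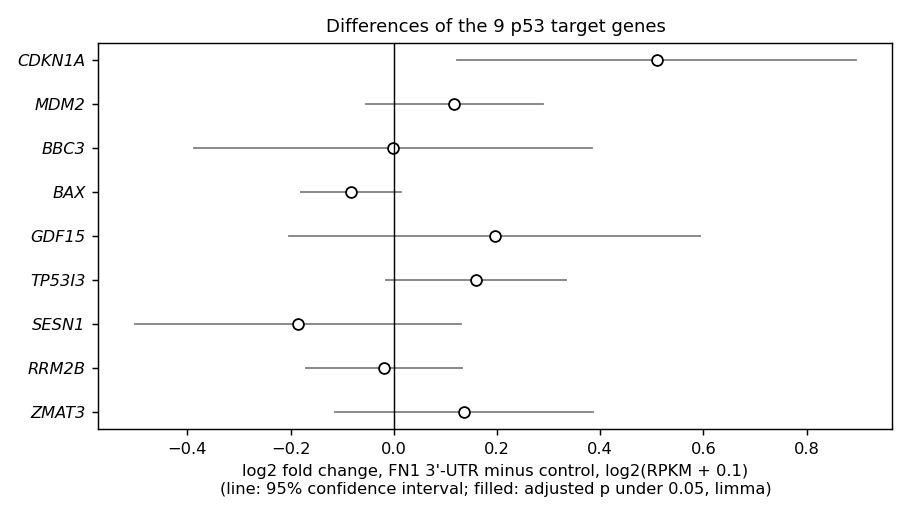
Log2 fold change of each member (points, horizontal axis, FN1 3′-UTR minus control on the log2(RPKM + 0.1) scale) with its 95% confidence interval (lines). No point is filled, since none passed an adjusted *P* of 0.05, and the interval of *CDKN1A* alone lies wholly above 0.

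In HGC27-control cells the members spanned 43.5-fold in mean RPKM, a level per length of merged exons. *BAX* was highest at 16.7 ± 0.547 RPKM, followed by *TP53I3* at 7.22 ± 0.229 RPKM, and these 2 lay above the median of 2.05 RPKM over tested genes. *RRM2B*, *MDM2* and *SESN1* followed at 1.88 ± 0.0212, 1.46 ± 0.0337 and 1.18 ± 0.0909 RPKM, and *BBC3* at 0.930 ± 0.105 RPKM (SD, n = 3 for each). *CDKN1A* at 0.713 RPKM and *ZMAT3* at 0.602 ± 0.0157 RPKM were neighbours whose control libraries overlapped. *GDF15* was lowest at 0.383 ± 0.0400 RPKM. *CDKN1A* lay at the 31.6th percentile of tested genes and *GDF15* at the 22.0th. The level of *MDM2* is per merged exons of 13269 bases, while its transcript used for the 3′-UTR search below has 2523 bases in GENCODE 29. Other members differ in this way too, such as *BAX* with 2587 and 793 bases. The order of the members at other lengths was not calculated.

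Over the 6 libraries, the pattern of *CDKN1A* was most like that of a noncoding RNA row, *RP11-206L10.2*, and of *DLX1*, *PEMT*, *PDLIM7* and *MRPL37*, with Pearson r of 0.999, 0.996, 0.992, 0.990 and 0.989. These were the 5 highest of 14651 genes with a mean of at least 1 RPKM, of which 450 had r above 0.9. With 6 libraries in 2 groups such values are a description only.

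Beyond the 9 members, 41 other p53 targets were read in 3 groups by role, and 37 of them were tested. Of the 37, 9 rose and 5 fell, which is 37.8% against 13.0% of all tested genes, with a median log2 fold change of −0.00. These lists were drawn up with earlier results of these data known, and the counts are a description.

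Among 13 targets that act on the cell cycle and growth, 7 rose, none fell and 6 did not pass, with a median of 0.25. *SFN*, which encodes 14-3-3σ, an adaptor that holds cells in G2, was at 3.01, 3.26 and 4.59 RPKM in HGC27-FN1 3′-UTR cells and at 1.05, 1.23 and 1.29 RPKM in HGC27-control cells. All 3 values of the first group were above all of the second, and the log2 fold change was 1.51 (SE 0.17, limma adjusted *P* = 0.00459). *PLK2*, a polo-like kinase gene, rose by 1.19 (limma adjusted *P* = 5.39e-04). *LIF*, a cytokine gene, rose by 1.14 from control levels between 0.237 and 0.272 RPKM (limma adjusted *P* = 0.00633), and *EPHA2*, an ephrin receptor gene, rose by 0.70 (limma adjusted *P* = 0.00860). *BTG2*, an antiproliferative gene, had a log2 fold change of −0.27 and did not pass (limma adjusted *P* = 0.108). Leaving out any 1 library left 4 or 5 calls in this list, and *SFN*, *PLK2*, *LIF* and *EPHA2* passed each time.

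Among 14 apoptosis targets, 11 were tested, of which 2 rose, 1 fell and 8 did not pass, with a median of −0.00. *FAS*, the death receptor gene whose site is shown above, was at 4.79, 4.48 and 4.34 RPKM in HGC27-FN1 3′-UTR cells and at 3.07, 3.23 and 3.36 RPKM in HGC27-control cells, a log2 fold change of 0.48 (SE 0.06, limma adjusted *P* = 0.00647). *PERP*, a desmosomal membrane protein gene, rose by 0.23 (limma adjusted *P* = 0.0213). *APAF1*, the core of the apoptosome, fell by 0.41 (limma adjusted *P* = 0.0245). *PMAIP1*, which encodes the BH3-only protein NOXA, had a log2 fold change of −0.14 and did not pass (limma adjusted *P* = 0.160). The count was 1 without FN1 3′-UTR replicate 1, control replicate 1 or control replicate 2, and while *FAS* passed each time, the limma adjusted *P* of *PERP* rose to 0.0859 and that of *APAF1* to 0.0843 without control replicate 2. The receptor gene *EDA2R* was at 0 in all 6 libraries, which at the depth here allows up to 0.0810 to 0.183 RPM by counting error alone.

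Among 14 targets in DNA repair, metabolism, redox control and autophagy, 13 were tested, of which 4 fell, none rose and 9 did not pass, with a median of −0.16. *DDIT4*, the mTORC1 inhibitor REDD1, was at 13.2, 14.1 and 12.8 RPKM in HGC27-FN1 3′-UTR cells and at 38.8, 37.2 and 38.1 RPKM in HGC27-control cells, a log2 fold change of −1.50 (SE 0.04, limma adjusted *P* = 9.89e-05). *SESN2*, the sestrin related to *SESN1*, fell by 0.73 (SE 0.07, limma adjusted *P* = 0.00279), and both *DDIT4* and *SESN2* are also known targets of ATF4. *SPATA18*, a mitochondrial quality control gene, fell by 1.03 (limma adjusted *P* = 0.0170) from levels between 0.290 and 0.361 RPKM in control cells, and *XPC*, the damage sensor of nucleotide excision repair, fell by 0.29 (limma adjusted *P* = 0.0141). *DDB2*, another excision repair gene, and *TIGAR*, a fructose bisphosphatase gene, had log2 fold changes of −0.16 and 0.15 and did not pass (limma adjusted *P* = 0.310 and 0.0976). Without control replicate 2 the count was 2, *DDIT4* and *SESN2*, and the limma adjusted *P* of *SPATA18* was 0.0768 and that of *XPC* 0.0571.

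**Figure D4:**
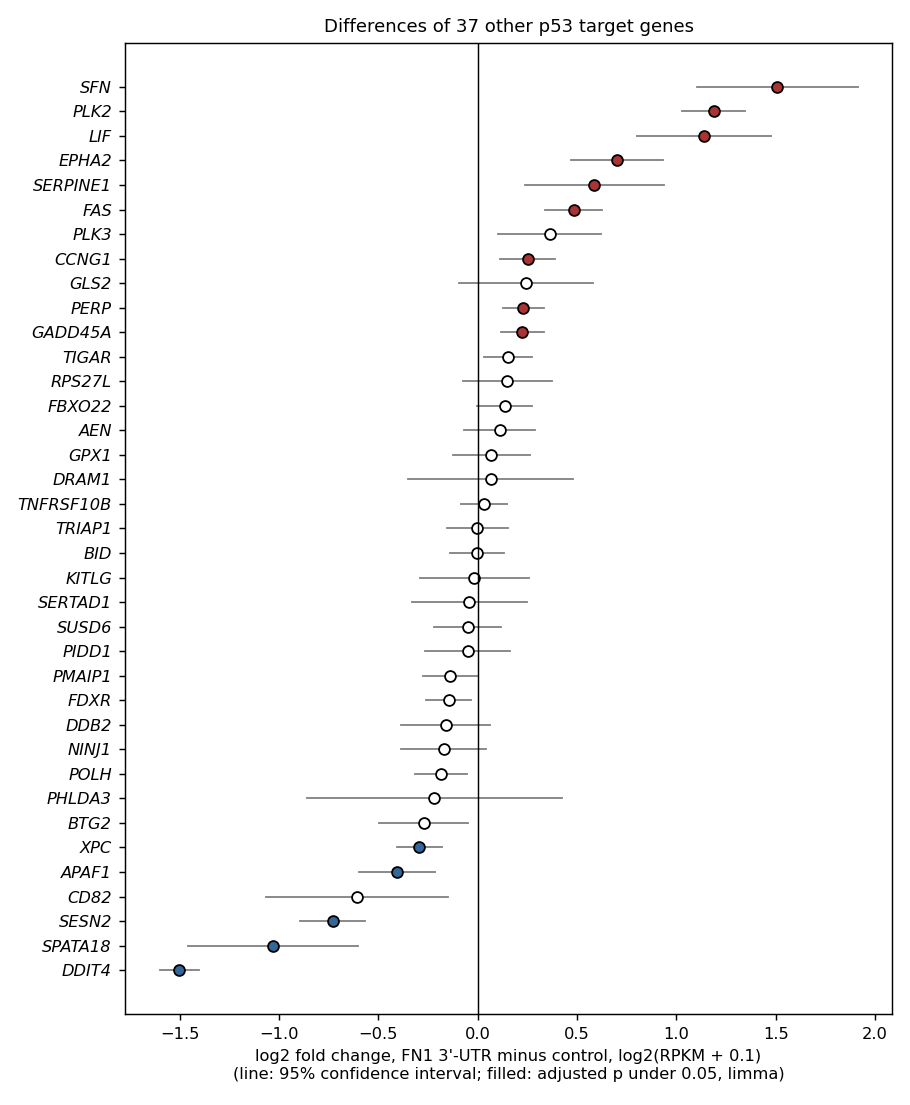
Log2 fold change of the 37 tested p53 targets outside the 9 members, ordered by value, with 95% confidence intervals, filled points marking an adjusted *P* under 0.05 (red higher, blue lower in FN1 3′-UTR cells). The filled points stand at both ends, from *SFN* at 1.51 to *DDIT4* at −1.50.

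Of 17 genes that regulate the pathway, 16 were tested, of which 4 fell, none rose and 12 did not pass, with a median of −0.05. The called share was 25.0%, against 13.0% of all tested genes (5.62% higher and 7.36% lower). *HIPK2*, a kinase that phosphorylates p53, fell by 0.51 (SE 0.06, limma adjusted *P* = 0.00537). *CHEK2*, a checkpoint kinase gene, fell by 0.26 (limma adjusted *P* = 0.0329), *EP300*, an acetyltransferase gene, by 0.20 (limma adjusted *P* = 0.0207), and *TP53BP1*, a DNA break response gene, by 0.14 (limma adjusted *P* = 0.0465). Of these, *HIPK2* alone had a limma adjusted *P* under 0.05 in each of the 6 fits that left out 1 library, in which the list had 1 or 2 calls. *CHEK2* and *TP53BP1* passed in none of these 6 fits. The limma adjusted *P* ran from 0.0623 to 0.0954 for *CHEK2*, highest without FN1 3′-UTR replicate 1. For *TP53BP1* it ran from 0.0768 to 0.129 and for *EP300* from 0.0357 to 0.0798, both highest without control replicate 2. *MDM4*, the partner of MDM2, had a log2 fold change of 0.01 (limma adjusted *P* = 0.925), and *PPM1D*, the phosphatase WIP1 and a target itself, had −0.19 (limma adjusted *P* = 0.105).

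**Figure D5:**
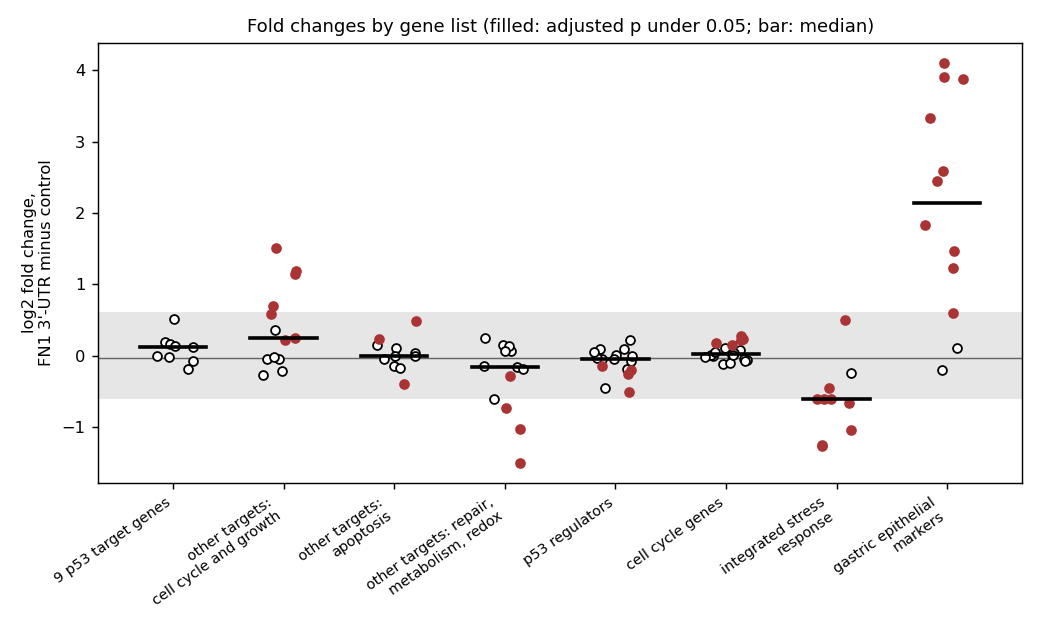
Log2 fold change (vertical axis, FN1 3′-UTR minus control) of the tested genes of each list, with bars at the medians, filled points at an adjusted *P* under 0.05, and a grey band from the 5th to the 95th percentile of all tested genes, −0.59 to 0.60. All 9 members lie inside the band, as do the tested apoptosis targets, while some genes of the growth and repair target lists, the stress response list and the epithelial marker list lie outside it.

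Markers of gastric epithelium moved with the groups. Of 15 markers, 14 were in the tables and 12 were tested, of which 10 rose and none fell, with a median log2 fold change of 2.13 (6 to 8 calls when 1 library was left out, the fewest without FN1 3′-UTR replicate 2 or 3). The called share was 83.3%, against 13.0% of all tested genes (5.62% higher and 7.36% lower). Their summed level was 28.5 to 40.0 RPKM in HGC27-FN1 3′-UTR libraries and 5.96 to 6.33 RPKM in HGC27-control libraries. *EPCAM* and *CDH1*, the epithelial adhesion genes, rose by 2.59 and 1.83 (limma adjusted *P* = 0.00348 and 0.00316), and *KRT18*, *CTSE* and *LYZ* rose by 4.11, 3.90 and 3.88. For E-cadherin, the protein of *CDH1*, the paper reports the other direction, lower in HGC27-FN1 3′-UTR than in control cells. The difference between this RNA and the protein was not tested. In control cells *EPCAM* was at 0.160 to 0.257 RPKM and *CDH1* at 0.105 to 0.157 RPKM, close to the filter limit of 0.1 RPKM, so these defining markers of the labelled tissue were nearly absent there. The gastric marker *TFF1* was at 0 in 5 of 6 libraries. The part of these markers in the differences of *CDKN1A*, *SFN* and the other targets was not tested, and in bulk RNA a changed number of cells of a type and a changed amount of RNA per cell cannot be told apart. Of 10 mesenchymal, blood and endothelial markers, 6 were tested and 2 rose, the collagen genes *COL1A1* and *COL3A1* by 0.55 and 0.44 (without control replicate 2, the limma adjusted *P* of *COL1A1* was 0.0518), while *PECAM1* was at 0 in all libraries. The called share of the 6 tested was 33.3%.

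The seeds of 4 microRNAs were searched in the 3′-UTRs of the members because the study followed these microRNAs, let-7i-5p above all, as partners in a pull-down with the introduced RNA. Mature sequences are from RefSeq (GRCh38.p14), with the seed, bases 2 to 8, in capitals, and no seed is shared between them.
hsa-let-7i-5p: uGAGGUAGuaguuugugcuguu
hsa-miR-423-5p: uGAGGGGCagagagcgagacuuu
hsa-miR-296-3p: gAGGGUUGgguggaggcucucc
hsa-miR-629-5p: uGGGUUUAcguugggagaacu
The match to the let-7i-5p seed, CTACCTC, was in the 3′-UTR of 1 of the 9 members, *CDKN1A*, starting at base 943 of 1537, and in 8.60% of 18909 GENCODE 29 3′-UTRs.
CDKN1A, seed match in capitals: aagggcaccctagttCTACCTCa
The match to miR-423-5p, GCCCCTC, was in 2 members, at bases 681 and 1092 in *CDKN1A* and at base 44 in *BBC3*, and in 13.4% of all 3′-UTRs. The match to miR-296-3p, CAACCCT, was in *ZMAT3* (7.72% of all), and that to miR-629-5p, TAAACCC, in none of the members (6.41% of all). Longer 3′-UTRs can hold more matches by length alone, and the microRNAs were not measured in these libraries. The same search found 0 matches to each of the 4 seeds in the 3′-UTR of *FN1*. The search covered only full matches to bases 2 to 8 in a single transcript, so other kinds of site would be missed. The paper reports binding there from a separate site prediction and from luciferase assays. It also reports lower *FN1* 3′-UTR levels after mimics of the 4 microRNAs, AGO2 immunoprecipitation results, and co-localization with let-7i-5p in tumor nodules.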

How the data were processed

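Members and gene lists were chosen with earlier results of these data known. The mRNA libraries of HGC27 cells, 3 per group, were read, groups coming from the labels. The deposited values were RPKM, which the authors calculated per gene and library with replicates kept apart. Per the submitters' processing notes the tools include Trimmomatic 0.36, STAR 2.5.3a and featureCounts from Subread 1.5.1, with GRCh38; the handling of duplicate reads and the strand setting of the counting were not given in the sources used here. RPKM times length in kilobases summed to 1000000 in each library, and whole reads were recovered for 100% of values above 0, within 0.05 read. The recovered depth was 16357085 to 37037532 reads.

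Genes with at least 0.1 RPKM in 3 or more libraries were tested with limma 3.58.1 (R 4.3.3; empirical Bayes with trend, two-sided) on log2(RPKM + 0.1) with group as the only term, and *P* values were adjusted over all 23299 genes by Benjamini-Hochberg. Fold changes on this scale understate changes of low genes. A call is an adjusted *P* under 0.05. The code was tested on simulated data. Alternatives were pseudocounts of 1 and 0.01, no filter, a mean of at least 1 RPKM, median-ratio scaling, the replicate number as a block, leaving out each library, and limma voom on recovered reads, the last chosen after seeing the data. The voom fits set library sizes by median-ratio factors of the reads. They kept genes with at least 3 reads in 3 or more libraries, or with at least 10 reads in every library. Counting intervals and floors cover counting error only.

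All members, *FN1*, *MDM4* and *PPM1D* were named, with further regulators if called; 1 gene of the regulator list is not reported here. From each other target list up to 4 called genes with the largest change, no overlap and at least 30 reads in all were named, and from the other lists up to 3, besides *PMAIP1*, *FAS*, *BTG2*, *DDB2*, *SESN2*, *TIGAR*, *ATF4*, *DDIT3*, *CDH1* and *EPCAM*. *EDA2R*, *TFF1*, *PECAM1*, *CDK1*, *TRIM22*, *ATR*, *CHEK1*, *FBXO22*, *FAM228B* and *RP11-787I22.3* were named after their values were seen. Promoter windows and mature microRNAs came from RefSeq tables and 3′-UTRs from GENCODE 29, with a single annotated principal transcript per gene. Matches in other 3′-UTRs of a gene are not covered. Gene coordinates were those of the deposited tables, and start and end equalled GENCODE 29 for each member.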

Additional observations from a re-analysis of the deposited data

How the results depend on the processing

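None of the 9 members was called under any of the limma fits on RPKM. Limma voom on recovered reads, chosen after seeing the data, called 1 member, *CDKN1A* (log2 fold change 0.58), and with at least 10 reads in every library 2, *CDKN1A* (0.59) and *MDM2* (0.17). The planned edgeR and DESeq2 alternatives on recovered reads were not run. At a mean of at least 1 RPKM, *CDKN1A*, *BBC3*, *GDF15* and *ZMAT3* were not tested. The sign of *BBC3*, near 0, turned with a pseudocount of 1 (0.0023), median-ratio scaling (0.0302) and voom (0.0688, and 0.0673 with 10 reads), and that of *RRM2B* with median-ratio scaling (0.0149) and voom (0.0296, and 0.0297 with 10 reads). The voom fits use median-ratio factors too, so these are not separate alternatives in scaling. Calls among p53 regulators moved from 4 to 2 with median-ratio scaling and 7 by voom with 10 reads, those among repair and metabolism targets from 4 to 8 by voom (7 of the 13 genes tested on RPKM, and *TRIM22*, which voom tests in addition), and those among epithelial markers from 10 to 6 at a mean of at least 1 RPKM and 4 by voom with 10 reads, both of which test fewer genes. The cause of the other changes was not tested. By voom the calls among regulators and among repair and metabolism targets went in both directions. *ATR* and *CHEK1* among the regulators, and *TIGAR* and *FBXO22* among the repair and metabolism targets, were called higher.

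Replicate numbers are shared between the groups, but same-numbered libraries did not deviate together over the tested genes (correlations of 0.0024, 0.021 and 0.010). Read depth rose with the replicate number in both groups. What else same-numbered libraries share is not known from the sources and was not tested. With the replicate number as a block, 0 members were called, *CDKN1A* had a limma adjusted *P* of 0.0987, and calls over all genes went from 3025 to 1162. Counts with the block were 1 for p53 regulators, 4 for cell cycle and growth targets, 1 for apoptosis targets and 1 for DREAM cell cycle genes.

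Leaving out 1 library at a time gave log2 fold changes of −0.151 to 0.105 for *BBC3*, −0.0471 to 0.0113 for *RRM2B* and −0.0288 to 0.0455 for *MDM4*. Counts ran from 0 to 0 for members, 1 to 2 for regulators, 4 to 5 for growth, 1 to 2 for apoptosis and 2 to 4 for repair targets, 1 to 5 for cell cycle genes, 8 to 9 for stress genes, 6 to 8 for epithelial and 1 to 2 for mesenchymal markers, and 971 to 1880 over all genes. Low reads limit *GDF15*, *CDKN1A* and *BBC3* most.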
